A study of Mus musculus with 4 samples.

Results

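The genes described here are those of the cell cycle and DNA replication: 38 genes of S phase, mitosis and cyclin control, named by symbol. They were followed across 4 populations of cardiac cells titled as macrophages. Of the 38 genes, 35 had a probe set, out of 19505 genes on the array, and Mcm7, Ccnb1 and Ccnd1 were not analysed here. Cells were sorted from hearts of wild-type C57BL/6N mice, 15 to 16 weeks old, after transverse aortic constriction (TAC). This operation narrows the aorta and puts the left ventricle under pressure. Cells of 6 mixed hearts gave 4 populations, titled Ccrl2, CD74, CD163 and Trem2, and each was profiled as 1 library on 1 Clariom S mouse array. All 4 libraries thus share strain, operation and pool of hearts, and no population from an unoperated heart was analysed here. The labels give the sampling time as 8 weeks after TAC in the source names and 1 week in the growth protocol, name CD9 in place of CD74 in the source name of the library titled CD74, and name Lyve1 in place of CD163 in the growth protocol. With 1 library per population no difference below has a replicate check, no error or p-value can be given, and precision is limited by how few arrays there are.

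All levels are the log2 values deposited by the authors, and a difference of 1 unit is 2-fold. To separate signal from background, 1500 chemosensory receptor and keratin-associated protein genes were taken as silent, and their 95th percentile served as each library's ceiling. It lay at 5.51 in Trem2, 5.67 in Ccrl2, 6.28 in CD163 and 6.53 in CD74. Macrophage markers tested the sort: all 7 with a probe set lay above the ceiling in Ccrl2, CD163 and Trem2, against 5 in CD74. There Csf1r, which encodes the CSF1 receptor, had 9.40 against 18.60 or more elsewhere. All 7 had their lowest value in CD74, so its title as macrophages rests on the label and not on these markers. Of 11 T and NK cell markers, 10 lay above the ceiling in CD74, 8 in Trem2, 1 in CD163 and 0 in Ccrl2, and the T cell receptor chain gene Cd3e had 9.50 in CD74 and lay below the ceiling in the other 3. All 6 neutrophil markers lay above the ceiling in Trem2, with the resistin-like gene Retnlg at 16.81 there and 7.15 or less elsewhere, and all 5 fibroblast and 5 endothelial markers lay above it in both Ccrl2 and Trem2. The genes of 2 titles did not set their library apart: Ccrl2 had 16.58 in Ccrl2 and 16.59 in Trem2, and Trem2 had 7.17 and 7.20. Since these are bulk samples, fewer cells of a type and less RNA per cell cannot be told apart.

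**Figure D1:**
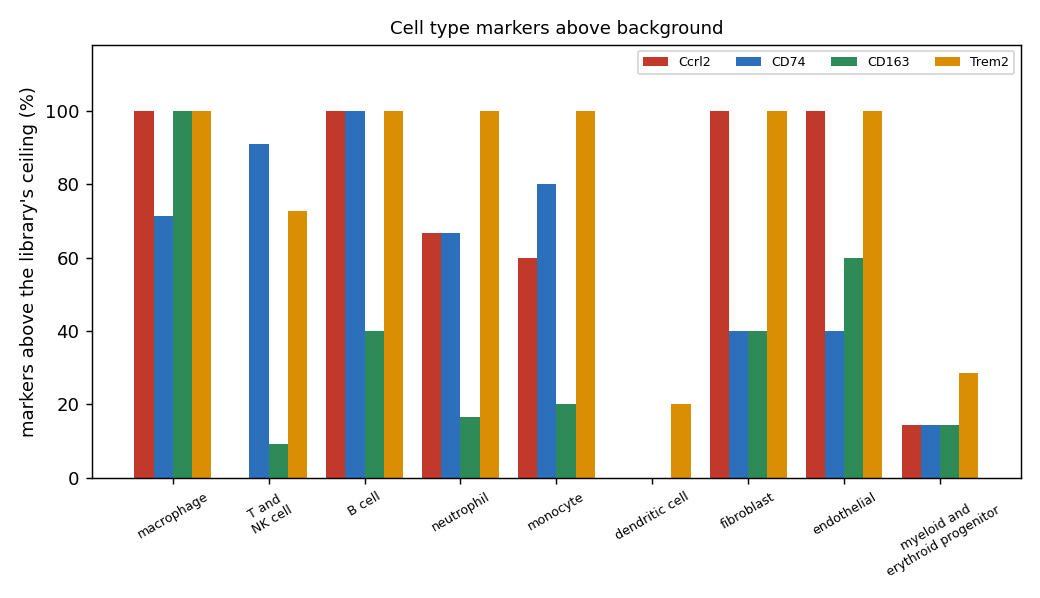
Share of marker genes of each cell type with a value above the library's background ceiling (y axis, percent) in the 4 libraries (colours). Macrophage markers reach 100% in Ccrl2, CD163 and Trem2, T and NK cell markers are above background mainly in CD74 and Trem2, and neutrophil markers reach 100% in Trem2.

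A cell that enters the cycle raises D-type cyclins, which with CDK4 and CDK6 phosphorylate the retinoblastoma protein and release E2F factors. E2F factors then drive genes that load the MCM helicase and supply nucleotides for S phase, and later genes with CHR and CCAAT promoter elements carry the cell through mitosis. CDK inhibitors such as p21 and p27 oppose these steps. Most resident macrophages of an adult heart rest outside the cycle, and self-renewal by division and the entry of monocytes both maintain them.

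Promoters are shown because the members fall into an early, E2F-driven class and a late, mitotic class that differ in these elements. They come from RefSeq windows of 300 bases on GRCm38.p6, from 250 bases before to 50 after the start site, and 28 of the 35 members had one. Mcm6 represents helicase loading, Mki67 and Cenpa the mitotic class, and Cdkn1a the inhibitors, and each had at least 1 difference of 2-fold or more below. Capitals mark E2F-type words (TTTCGCGC, TTTGGCGC, TTTCCCGC or TTTGCCGC), the CHR word TTTGAA, the CCAAT word and the p53 decamer, each searched on both strands and counted separately where they overlapped.
Mcm6: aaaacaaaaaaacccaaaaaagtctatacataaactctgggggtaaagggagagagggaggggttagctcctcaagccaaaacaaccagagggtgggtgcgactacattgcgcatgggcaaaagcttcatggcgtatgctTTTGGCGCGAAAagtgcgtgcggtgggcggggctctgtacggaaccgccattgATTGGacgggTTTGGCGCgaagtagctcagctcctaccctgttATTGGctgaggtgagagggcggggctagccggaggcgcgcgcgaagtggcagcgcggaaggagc
Mki67: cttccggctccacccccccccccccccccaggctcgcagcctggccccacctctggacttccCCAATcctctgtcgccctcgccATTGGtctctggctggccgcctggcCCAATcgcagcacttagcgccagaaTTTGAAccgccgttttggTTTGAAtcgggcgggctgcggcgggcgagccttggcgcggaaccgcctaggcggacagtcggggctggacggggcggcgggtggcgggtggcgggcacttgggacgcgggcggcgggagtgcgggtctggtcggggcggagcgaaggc
Cenpa: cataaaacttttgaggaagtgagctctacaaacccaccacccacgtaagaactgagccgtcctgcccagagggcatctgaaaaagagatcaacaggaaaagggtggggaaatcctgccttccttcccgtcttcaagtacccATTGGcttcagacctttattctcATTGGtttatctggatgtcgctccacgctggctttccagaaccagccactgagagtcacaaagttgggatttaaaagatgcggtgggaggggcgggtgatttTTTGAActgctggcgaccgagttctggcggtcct
Cdkn1a: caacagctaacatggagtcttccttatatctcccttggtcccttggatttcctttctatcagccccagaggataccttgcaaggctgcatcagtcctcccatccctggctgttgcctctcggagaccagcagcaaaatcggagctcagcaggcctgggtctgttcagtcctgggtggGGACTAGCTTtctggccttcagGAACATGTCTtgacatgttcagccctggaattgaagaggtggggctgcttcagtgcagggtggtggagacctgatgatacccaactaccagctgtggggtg
These windows lie at chr1:128359656-128359955 on the minus strand for Mcm6, chr7:135716330-135716629 on the minus strand for Mki67, chr5:30666636-30666935 on the plus strand for Cenpa, and chr17:29090729-29091028 on the plus strand for Cdkn1a, the upstream of its 2 listed starts. Mcm6 held E2F-type words at positions -110, -106 and -47 from the start site, the first 2 of them overlapping, and CCAAT words at -57 and -14. Mki67 held CHR words at -116 and -98 and Cenpa at 17, each with CCAAT words upstream. Cdkn1a held p53 decamers at -73 and -51 in this window and no word of the other 3 kinds.

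Among the 19 promoters of S phase and mitosis members, 9 held both a CHR and a CCAAT word (47.4%), against 6.95% of all 32851 promoters. They were those of Aurka, Ccnb2, Cdc20, Cdk1, Cenpa, Mcm2, Mki67, Plk1 and Top2a. E2F-type words were in 26.3% of the 19, those of Cdc6, Cdk1, Mcm3, Mcm5 and Mcm6, against 2.26% of all. CHR words, with or without a CCAAT word, were in 17.9% and CCAAT words in 37.4% of all promoters, and the latter in 84.2% of the 19. Of the 12 promoters of G1 control, E2F/RB and inhibitor members, 0 held a CHR word, and 1, that of Cdk2, held an E2F-type word. The p53 decamer was in 8.36% of all promoters and, among the members, in those of Birc5, Tyms and Cdkn1a. A match is a description of these letters, not of binding.

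Members were above background more often in the Ccrl2 and Trem2 libraries than in the others. In Ccrl2, 29 of the 35 lay above the ceiling, against 38.2% of all genes, and in Trem2 25 did, against 41.8%. In CD163 the count was 15, against 25.6% of all genes, and in CD74 it was 10, against 18.6%. The members' count was highest in Ccrl2 and the share of all genes in Trem2, and in each library the members' share was higher than that of all genes. Below the ceiling in all 4 libraries were 6 members: Cdk1, the kinase that starts mitosis, Cdc20, an activator of the anaphase-promoting complex, Aurka, a spindle kinase, Bub1, a checkpoint kinase, Ccne2, an E cyclin, and E2f1. Their values ran from 3.70 (Cdk1 in Ccrl2) to 5.92 (Ccne2 in CD163), so no difference between libraries is given for them.

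**Figure D2:**
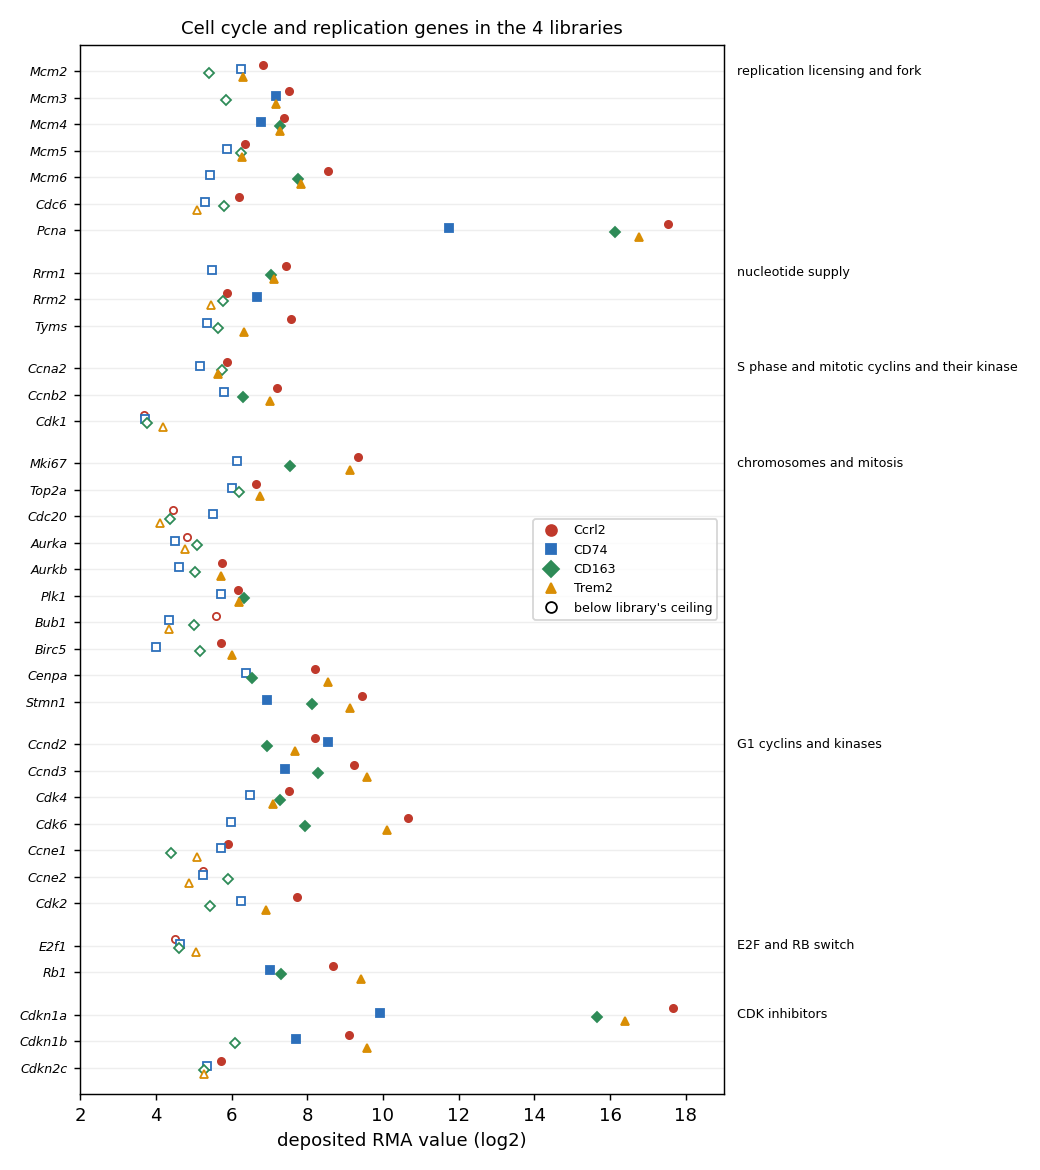
Deposited log2 values (x axis) of the 35 members with a probe set, grouped by role, in the Ccrl2, CD74, CD163 and Trem2 libraries (colour and shape), filled where the value is above that library's background ceiling. Pcna and Cdkn1a show the widest gaps between CD74 and the other libraries, and the 6 members with 4 open symbols were not above background anywhere.

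On the deposited values of all 35 members, with no ceiling applied, 29 were higher in Ccrl2 than in CD74 (82.9%), against 51.7% of all genes, and the median difference was 1.01 against 0.05. Against CD163, 30 of 35 were higher in Ccrl2 (85.7%, all genes 50.9%), with a median of 0.70 against 0.02. Against Trem2, 26 were higher in Ccrl2 (74.3%, all genes 49.4%), with a median of 0.32 against 0. The members thus lay mostly to the Ccrl2 side in each of these comparisons, which share the Ccrl2 library. Restricted to genes above a ceiling in either library, with a value below its ceiling set to that ceiling, the contrast with CD74 and CD163 was smaller. Against CD74, 65.5% of 29 members were then higher in Ccrl2 and 57.8% of all genes, with medians of 0.68 and 0.26. Against CD163 the shares were 72.4% and 61.1% (0.78 and 0.30), and against Trem2 75.9% and 48.4% (0.32 and -0.01). Where the other library's value was below its ceiling and that ceiling lay over the Ccrl2 value, a gene was counted as lower in Ccrl2. This applied to 8 members against CD74 and 7 against CD163, all with a higher deposited value in Ccrl2. For them these shares do not give a measured direction. The direction of the 3 medians over all 35 members was kept after quantile normalization (0.56, 0.45 and 0.34) and median centring (1.18, 0.87 and 0.32). The CD74 and CD163 libraries lay below Trem2 for 27 and 24 of the 35 members, with medians of -0.60 and -0.63 (all genes -0.05 and -0.01). After quantile normalization the medians were -0.44 and -0.11, with 25 and 19 members below, so that CD163 was near an even split. After median centring they were -0.77 and -0.80.

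Counted by the 2-fold rule, in which the higher value lies above its ceiling and a value below its ceiling is set to that ceiling, Ccrl2 was at least 2-fold above CD74 in 12 of the 29 members measured in either library, against 32.0% of all genes, and at least 2-fold below in 0, against 7.80%. Above CD163 it was higher in 12 of 29, against 28.1%, and lower in 0, against 5.03%. Above Trem2 it was higher in 2 of 29, Tyms and Cdkn1a, against 5.43%, and lower in 0, against 7.92%. After quantile normalization Ccrl2 was higher than CD74 in 6 of 29, against 14.5% of all genes at that scaling, and than CD163 in 4, against 11.8%, a share close to that of all genes. Rrm2 and Ccnd2 were then at least 2-fold lower in Ccrl2 than in CD74, against 17.9% of all genes. Differences could not be resolved for 8 members against CD74 and 7 against CD163, because the measured value lay under the other library's ceiling. The remainder did not reach the 2-fold rule. Where the lower value was under its ceiling the fold was only a minimum, at least 1.87 for Rrm1 and 1.97 for Cdk4 against CD74.

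**Figure D3:**
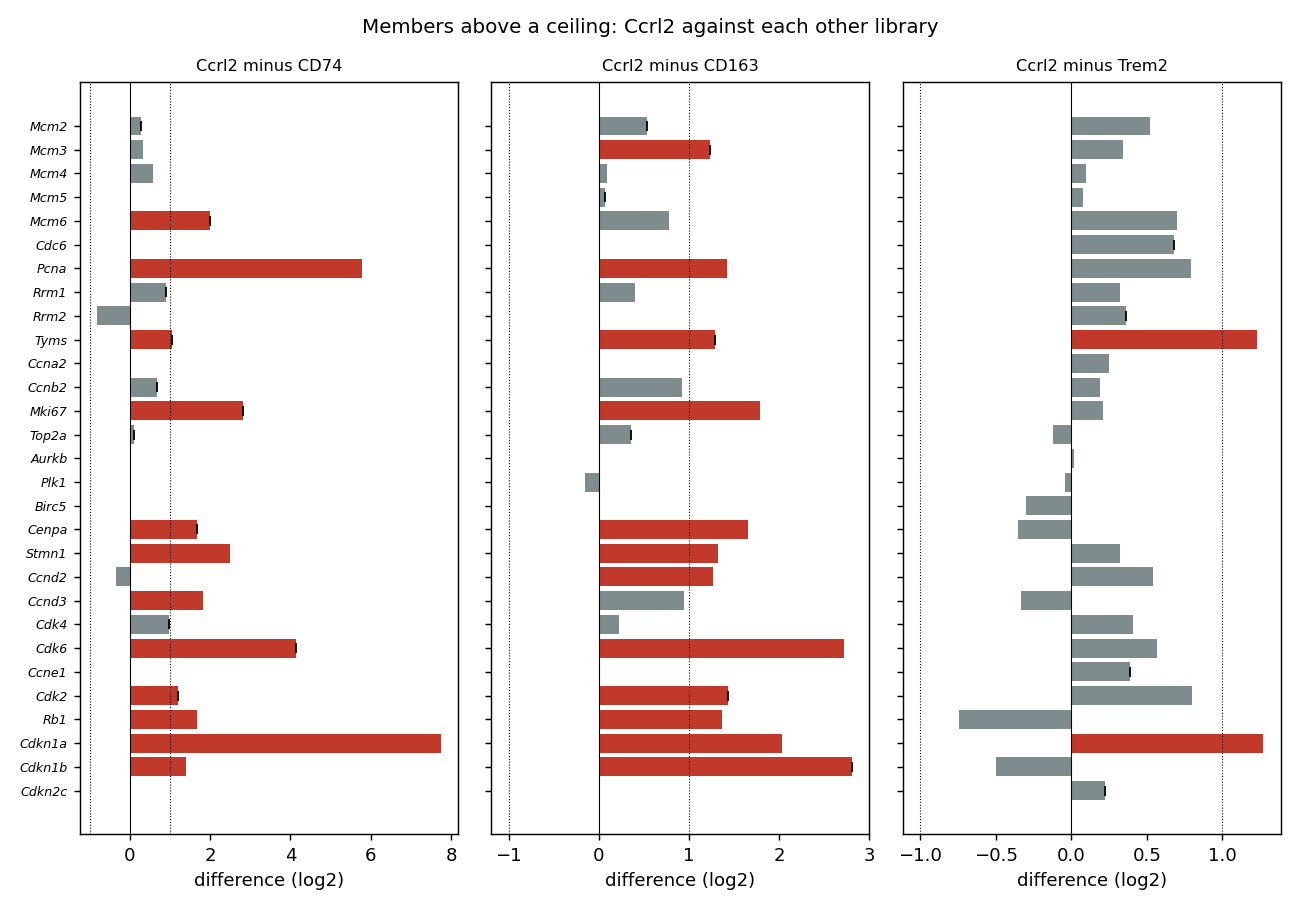
Difference in log2 units (x axes, scales differ) between the Ccrl2 library and the CD74, CD163 and Trem2 libraries for the 29 members above a ceiling; red bars are at least 2-fold, a black tick marks a lower bound, dotted lines stand at 1 unit either way, and no bar is drawn where the ceilings leave the difference unresolved. Red bars number 12 against CD74, 12 against CD163 and 2 against Trem2.

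Of the other pairs, CD74 was at least 2-fold below CD163 in 6 of 18 measured members, against 19.3% of all genes, and above it in 2, Ccnd2 and Cdkn1b, against 9.98%. CD74 was below Trem2 in 10 of 26, against 32.6%, and above it in 1, Rrm2, against 7.62%. CD163 was below Trem2 in 7 of 25, against 27.6%, and above it in 0, against 6.07%. The members' shares of lower calls against Trem2, 38.5% and 28.0%, were thus near those of all genes. After quantile normalization 7 of the 10 and 4 of the 7 were kept, against 13.0% and 11.8% of all genes at that scaling, and Stmn1, at exactly the threshold between CD163 and Trem2, turned sign.

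**Figure D4:**
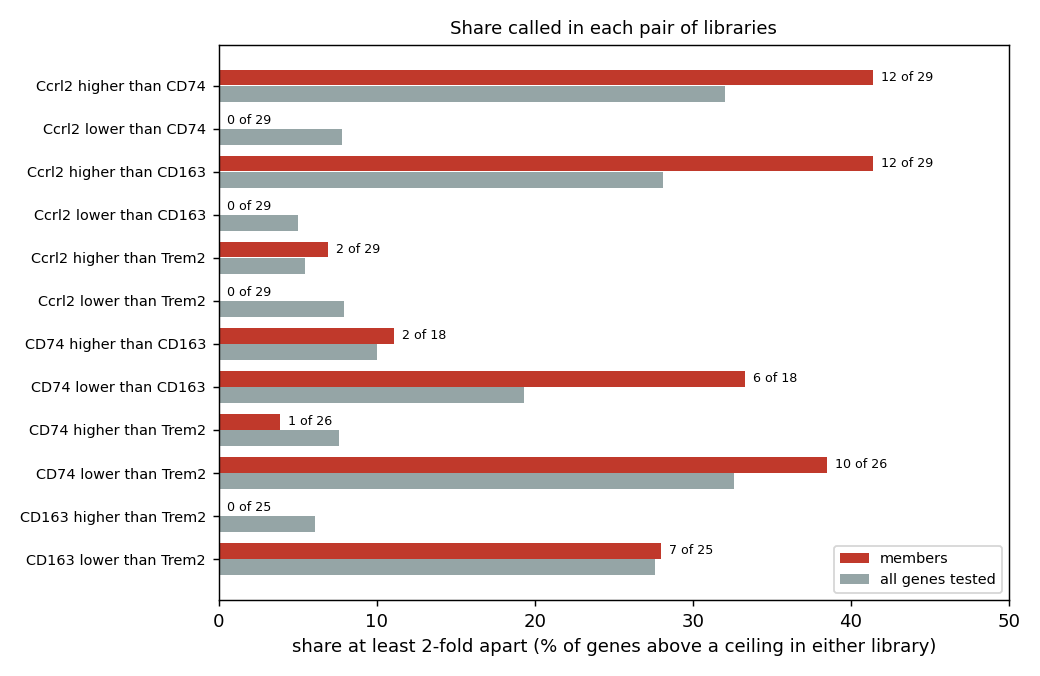
Share of members (red, with counts) and of all genes tested (grey) that were at least 2-fold apart in each pair of libraries and direction (x axis, percent of genes above a ceiling in either library). Members exceed the share of all genes for Ccrl2 against CD74 and CD163 and for CD74 below CD163, and lie close to it for CD163 below Trem2.

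Set against the other 3 libraries at once, Ccrl2 was at least 2-fold above each of them for Tyms and Cdkn1a, 2 of 29 members against 2.61% of all genes, and below each for 0 (0.118%). CD74 was at least 2-fold below each for Mcm6, Pcna, Mki67, Stmn1, Cdk6 and Cdkn1a, 6 of 29 against 10.2%, and above each for 0 (1.78%). CD163 was below each for Cdkn1b, 1 of 29 against 3.53%, and above each for 0 (0.835%). Trem2 was above each for 0 (3.85%) and below each for 0 (0.128%). Without the CD74 library, Ccrl2 was still above the remaining libraries for 2 members and CD163 below them for 6. Without Trem2, Ccrl2 was above for 10. Leaving out a library loosens the rule for every gene, and no share of all genes is given beside these counts. Of 11 T and NK cell markers, 10 lay above the ceiling in CD74 and 8 in Trem2, and all 6 neutrophil markers did in Trem2. The part of these markers in the counts was not tested.

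Replication licensing genes load the MCM helicase on origins, and Pcna encodes the sliding clamp of the replication fork. Pcna had 17.54 in Ccrl2, 16.75 in Trem2, 16.12 in CD163 and 11.75 in CD74. CD74 stood apart from the other 3 libraries. The Ccrl2 value was 55.3-fold above CD74 and 2.68-fold above CD163, and the CD74 value 20.7-fold below CD163 and 32.0-fold below Trem2. The excess over CD163 slipped under 2-fold after quantile normalization (16.75 against 16.30), while that over CD74 (12.99) did not.

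Mcm6, a helicase subunit whose promoter held E2F-type words, had 8.54 in Ccrl2, 7.84 in Trem2, 7.76 in CD163 and 5.42, under the ceiling, in CD74. Ccrl2 was at least 4.03-fold, Trem2 at least 2.48-fold and CD163 at least 2.35-fold above CD74. After quantile normalization CD163 had 8.13 and Ccrl2 8.07, so the order of those 2 turned, and Trem2, at 7.40, was no longer 2-fold over the CD74 ceiling. Mcm3, another subunit, had 7.52 in Ccrl2, 7.18 in both CD74 and Trem2 and 5.86, below the ceiling, in CD163, so that here CD163 was the low library, at least 2.36-fold under Ccrl2. After quantile normalization CD74 was the highest library for Mcm3, at 7.80, and Ccrl2, at 7.23, was no longer 2-fold over the CD163 ceiling. Mcm4 lay above the ceiling in all 4 libraries, from 6.79 in CD74 to 7.38 in Ccrl2, within 2-fold throughout.

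The other subunits and the loader were at or near background. Mcm2 had 6.82 in Ccrl2 and 6.30 in Trem2, and Mcm5 had 6.35 and 6.27, both below the ceiling in CD74 and CD163. Cdc6, which brings the helicase to origins, lay above the ceiling in Ccrl2 alone, at 6.19. The MCM subunits therefore did not share 1 pattern across the libraries: CD74 was lowest for Mcm6 and CD163 for Mcm3.

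Enzymes of nucleotide supply also differed among themselves. Tyms, thymidylate synthase, had 7.57 in Ccrl2 and 6.34 in Trem2, and its CD163 and CD74 values, 5.64 and 5.34, were under the ceiling. Ccrl2 was 2.35-fold above Trem2, at least 2.45-fold above CD163 and at least 2.06-fold above CD74. After quantile normalization the Ccrl2 value of 7.28 was still at least 2-fold above Trem2 (6.19) but no longer above the CD163 and CD74 ceilings by that margin. Rrm1, the large subunit of ribonucleotide reductase, had 7.43 in Ccrl2, 7.11 in Trem2, 7.03 in CD163 and 5.49, under the ceiling, in CD74. Rrm2, the small subunit of the same enzyme, had its highest value in CD74, 6.68, with 5.87 in Ccrl2 and values below the ceiling in CD163 (5.77) and Trem2 (5.46), and CD74 was at least 2.25-fold above Trem2. That last call rests on unlike ceilings, 6.53 in CD74 and 5.51 in Trem2. Under the same rule 4.53% of background genes were called higher in CD74 than in Trem2, against 1 of 26 members. On the deposited values the subunits of 1 enzyme ran in opposite order in CD74, but each was close to background there.

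Among the cyclins of S phase and mitosis, Ccnb2, a B cyclin, had 7.21 in Ccrl2, 7.02 in Trem2, 6.29 in CD163, just over its ceiling, and 5.79, below the ceiling, in CD74. Ccna2, cyclin A, lay just over the ceilings of Ccrl2 (5.89) and Trem2 (5.64) and below those of the other libraries. No resolved difference in either gene reached 2-fold. The excess of Ccnb2 in Ccrl2 over CD74, at least 1.60-fold, is a lower bound. For Ccna2, the differences of Ccrl2 and Trem2 from CD74 and CD163 could not be resolved.

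Genes of chromosomes and mitosis gave a set of 3 members with clear values. Mki67, which encodes the proliferation antigen Ki-67, had 9.34 in Ccrl2, 9.13 in Trem2, 7.55 in CD163 and 6.14, under the ceiling, in CD74. Ccrl2 and Trem2 lay together and CD163 below them, by 3.46-fold against Ccrl2 and 2.99-fold against Trem2. CD74 was at least 7.01-fold below Ccrl2, 6.06-fold below Trem2 and 2.03-fold below CD163. After quantile normalization the values were 8.76, 8.50, 7.89 and 6.32, in the same order, with CD163 then within 2-fold of both.

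Cenpa, the centromeric histone H3 variant, had 8.56 in Trem2, 8.21 in Ccrl2, 6.55 in CD163 and 6.39 in CD74, under its ceiling. Ccrl2 and Trem2 again lay together, 3.16-fold and 4.03-fold above CD163 and at least 3.20-fold and 4.08-fold above CD74. After quantile normalization the Ccrl2 excess over the CD74 ceiling was under 2-fold (7.80 against 6.88), and the other 3 stayed over it. Stmn1, stathmin, which destabilises microtubules, had 9.44 in Ccrl2, 9.12 in Trem2, 8.12 in CD163 and 6.95 in CD74, above the ceiling in all. CD74 was 5.62-fold below Ccrl2, 4.50-fold below Trem2 and 2.25-fold below CD163. Ccrl2 was 2.50-fold above CD163 and Trem2 above it by just the 2-fold threshold, and after quantile normalization CD163 (8.52) lay over Trem2 (8.48) and within 2-fold of Ccrl2 (8.85).

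The remaining mitotic members were close to the ceiling where they passed it. Top2a, topoisomerase II alpha, had 6.76 in Trem2 and 6.64 in Ccrl2, Aurkb, a chromosomal passenger kinase, 5.72 and 5.74, and Birc5, survivin, 6.01 and 5.71, all below the ceiling in CD74 and CD163. Plk1, a mitotic kinase, had 6.32 in CD163, 6.21 in Trem2 and 6.17 in Ccrl2. None of these 4 had a resolved difference of 2-fold between libraries. Among the genes of this role, Mki67, Cenpa and Stmn1 had values well over the ceilings in Ccrl2 and Trem2, whereas Cdc20, Aurka and Bub1, and the kinase gene Cdk1, had none.

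In the G1 group, Cdk6, a kinase partner of D cyclins, showed the widest spread. It had 10.67 in Ccrl2, 10.10 in Trem2, 7.95 in CD163 and 5.98, under the ceiling, in CD74. Ccrl2 was 6.59-fold above CD163 and at least 17.6-fold above CD74, Trem2 4.44-fold and at least 11.9-fold, and CD163 at least 2.68-fold above CD74. These values kept the same order after quantile normalization, at 10.03, 9.35, 8.34 and 6.10, and the calls were kept. Cdk4, the related kinase, had 7.51, 7.10, 7.28 and 6.50 in Ccrl2, Trem2, CD163 and CD74, the last below its ceiling. No difference was called at 2-fold, but the excess of Ccrl2 over CD74, at least 1.97-fold, is a lower bound.

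The D cyclins differed from each other in the order of the libraries. Ccnd2 had its highest value in CD74, 8.55, with 8.21 in Ccrl2, 7.67 in Trem2 and 6.94 in CD163, so that CD163 was 3.05-fold below CD74 and 2.41-fold below Ccrl2. Ccnd3 had 9.57 in Trem2, 9.24 in Ccrl2, 8.29 in CD163 and 7.41 in CD74, so that CD74 was 4.47-fold below Trem2 and 3.56-fold below Ccrl2, and CD163 2.43-fold below Trem2. CD74 was thus the highest library for Ccnd2 and the lowest for Ccnd3. After quantile normalization Ccnd2 had 9.59 in CD74 and 7.80 in Ccrl2, a gap of over 2-fold, and CD163, at 7.18, was within 2-fold of Ccrl2, while Ccnd3 ran from 8.10 in CD74 to 8.88 in Trem2, with CD163 (8.70) just over Ccrl2 (8.66). Of 11 T and NK cell markers, 10 lay above background in CD74, 8 in Trem2, 1 in CD163 and 0 in Ccrl2. On the deposited values Ccnd2 had 8.55, 7.67, 6.94 and 8.21 in those libraries, and the part of such cells in it was not tested.

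Cdk2, the kinase of E and A cyclins, had 7.72 in Ccrl2, 6.92 in Trem2, and 6.25 and 5.43, below the ceilings, in CD74 and CD163. Ccrl2 was at least 2.28-fold above CD74 and at least 2.71-fold above CD163. Both margins slipped under 2-fold after quantile normalization. Ccne1, an E cyclin, lay above the ceiling in Ccrl2 alone, at 5.90.

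Rb1, the retinoblastoma protein that holds E2F factors in check, had 9.42 in Trem2, 8.68 in Ccrl2, 7.31 in CD163 and 7.01 in CD74, above the ceiling in all 4. Trem2 was 4.32-fold above CD163 and 5.31-fold above CD74, and Ccrl2 2.58-fold and 3.18-fold above them. Trem2 and Ccrl2 differed by less than 2-fold. After quantile normalization the values were 8.75, 8.18, 7.62 and 7.57, and only the Trem2 excess stayed over 2-fold.

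Among the CDK inhibitors, Cdkn1a had the widest range of all members over the 4 libraries. Cdkn1a, which encodes p21, an inhibitor induced by p53 and by stress, had 17.67 in Ccrl2, 16.40 in Trem2, 15.64 in CD163 and 9.93 in CD74. Ccrl2 was the highest library, 2.41-fold above Trem2, 4.08-fold above CD163 and 214-fold above CD74. Trem2 was 88.6-fold and CD163 52.3-fold above CD74, which was above its ceiling all the same. After quantile normalization the values were 16.88, 15.53, 15.86 and 11.13, so the order of Trem2 and CD163 turned while Ccrl2 stayed highest and CD74 lowest.

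Cdkn1b, which encodes p27, an inhibitor of resting cells, had another low library. It had 9.59 in Trem2, 9.09 in Ccrl2, 7.70 in CD74 and 6.08, below the ceiling, in CD163. CD163 was at least 9.92-fold below Trem2, 7.01-fold below Ccrl2 and 2.68-fold below CD74, and stayed at least 2-fold below each after quantile normalization. CD74 was 3.71-fold below Trem2 and 2.62-fold below Ccrl2 on the deposited values, but had 8.50 against 8.90 and 8.52 after that normalization. Cdkn2c, which encodes p18, lay just over the ceiling in Ccrl2, at 5.73, and below it elsewhere.

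By role, the median difference of a library from the mean of the other 3 was taken over members above a ceiling in at least 1 library, which gives a description only. In Ccrl2 the medians were 0.79 for licensing and fork genes, 0.89 for nucleotide supply, 0.65 for chromosomes and mitosis, 0.82 for G1 cyclins and kinases and 1.30 for inhibitors, beside 0.39 for all 9346 genes taken the same way. In CD74 they were -0.42, -1.18, -1.38, -0.62 and -0.55, beside -0.59. In CD163 they were 0.14, -0.23, -0.32, -1.07 and -0.18, beside -0.28, and in Trem2 0.14, 0.16, 0.95, 0.23 and 1.97, beside 0.56. In Ccrl2 all 5 medians lay above that of all genes, whereas in Trem2 only mitosis and inhibitors did. The filter itself leaned to Ccrl2: all 29 members that passed it were above the ceiling there, against 7454 of the 9346 genes. Cdc6, Ccne1 and Cdkn2c passed through Ccrl2 alone, so the Ccrl2 medians cannot be read apart from the filter. The S phase and mitotic cyclins, with 2 members, had 0.60, -0.82, -0.10 and 0.31 in Ccrl2, CD74, CD163 and Trem2, and Rb1, the only measured member of its role, 0.77, -1.46, -1.06 and 1.75.

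Beyond the members, 7 pathway lists named 127 further genes, 122 of them on the array, and 88 lay above a ceiling in at least 1 library. Ccrl2 was at least 2-fold above CD74 in 18 of the 75 measured there and below in 5, above CD163 in 16 of 76 and below in 1 (Pold2, a polymerase delta subunit), and above Trem2 in 2 of 85 (Rfc1 and Cenpe) and below in 7. The shares of higher genes were under those of all genes given above. After quantile normalization the first pair of counts was 6 higher and 11 lower, beside 14.5% and 17.9% of all genes at that scaling. CD74 was below CD163 in 9 of 46 and above in 5, beside 19.3% and 9.98% of all genes, but after quantile normalization below in 6 and above in 10. CD74 was below Trem2 in 20 of 80 and above in 2, beside 32.6% and 7.62%, but then below in 6 and above in 10. CD163 was below Trem2 in 15 of 82 and above in 4, beside 27.6% and 6.07%, but then below in 8 and above in 11. At that scaling the shares of all genes were 16.7% below and 19.3% above for CD74 against CD163. They were 13.0% and 16.0% for CD74 against Trem2, and 11.8% and 13.1% for CD163 against Trem2. The balance of these 3 comparisons thus turned with the scaling for all genes as well as for the lists.

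Origin recognition and firing genes were above a ceiling in 8 of 15 cases. Orc3, an origin recognition subunit, had 8.69 in Trem2, 8.28 in Ccrl2, 7.90 in CD163 and 5.86 in CD74, under its ceiling. Cdt1, a loading factor, had 7.66 in Trem2 and 7.28 in Ccrl2 and lay below the ceilings of CD74 and CD163. Gins4, a part of the active helicase, had 7.15 in Ccrl2, 7.10 in CD163, 6.51 in Trem2 and 6.17 in CD74, under its ceiling, whereas Cdc45, its partner, was below the ceiling everywhere.

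Replicative polymerase and fork genes were above a ceiling in 16 of 20 cases. Rfc1, the large subunit of the clamp loader, was at least 2-fold above each other library in Ccrl2, with 7.89 against 6.49 in Trem2 and values below the ceiling in CD74 and CD163. After quantile normalization its Ccrl2 value, 7.52, was no longer 2-fold over the CD74 ceiling of 6.88. Pold2 ran the other way, with 8.90 in CD163, 8.66 in CD74, 7.69 in Trem2 and 7.62 in Ccrl2. Rpa1, which coats single-stranded DNA, lay within 2-fold on the deposited values, at 8.12 to 8.70, but ran from 7.62 in Trem2 to 9.54 in CD74 after quantile normalization. Of 8 other nucleotide synthesis genes, 5 were above a ceiling, and Paics, a purine synthesis enzyme, had 9.41 in Ccrl2, 9.07 in Trem2, 8.26 in CD163 and 6.53 in CD74, not above its ceiling.

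Genes of the kinetochore, spindle and cytokinesis were mostly near background, as were the members of chromosomes and mitosis other than Mki67, Cenpa and Stmn1. Ttk, Incenp and Kif11 were highest in CD74. Of 14 kinetochore and checkpoint genes, 5 were above a ceiling, among them Ttk, a checkpoint kinase, in CD74 alone (7.12). Of 27 spindle, cytokinesis and condensin genes, 20 were. Incenp, which anchors Aurora B, had 7.55 in CD74, 6.57 in Trem2 and 5.71 in Ccrl2, and Kif11, a spindle motor and not among the genes picked by the naming rule, 7.16, 6.12 and 5.86. On the other side stood Pttg1, securin, with 8.49 in Ccrl2, 8.21 in Trem2, 7.42 in CD163 and 6.46, under the ceiling, in CD74. Smc4, a condensin subunit, had 8.07 in Trem2, 7.92 in Ccrl2, 7.00 in CD74 and 6.67 in CD163. Markers of other cell types differ between these libraries as given above, and their part in these values was not tested.

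E2F and pocket protein genes were above a ceiling in 15 of 16 cases. Rbl2, which encodes the pocket protein p130 of resting cells, had 9.72 in Trem2, 8.65 in Ccrl2, 8.26 in CD74 and 7.17 in CD163. Trem2 was 2.10-fold above Ccrl2, 2.75-fold above CD74 and 5.86-fold above CD163, though after quantile normalization CD74 (9.20) lay over Trem2 (9.03). Tfdp1, a partner of E2F factors, had 9.06 in Ccrl2, 8.66 in Trem2, 8.04 in CD163 and 7.07 in CD74.

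The list of other inhibitors, quiescence and p53 genes held the widest differences outside the members. Of its 18 genes measured in Ccrl2 or CD74, 10 were at least 2-fold higher in Ccrl2 and 1 lower, beside 32.0% and 7.80% of all genes. Of 18 measured in Ccrl2 or CD163, 7 were higher and 0 lower, beside 28.1% and 5.03%. Against Trem2, 0 of 19 were higher and 4 lower in Ccrl2, namely Btg1, Ccng1, Gadd45a and Plk3, beside 5.43% and 7.92%. CD163 was below Trem2 in 9 of 18, beside 27.6%. After quantile normalization these counts were 4 and 2, 5 and 0, 0 and 4, and 6, with CD163 above Trem2 in 3. The shares of all genes at that scaling were 14.5% and 17.9%, 11.8% and 11.0%, 4.40% and 4.46%, and 11.8%, with 13.1% for CD163 above Trem2. Ccng2, Mdm2 and Klf4 then turned sign between Ccrl2 and CD74.

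Btg1, an antiproliferative gene abundant in resting lymphocytes, had 13.45 in CD74, 13.37 in Trem2, 11.59 in Ccrl2 and 8.03 in CD163, so that CD163 was 42.8-fold below CD74 and 11.8-fold below Ccrl2. Btg2, a related gene induced by p53, had 15.23 in Ccrl2, 14.76 in Trem2, 13.36 in CD163 and 11.78 in CD74. The 2 relatives thus had different low libraries. Ccng1, a cyclin-like p53 target, had 13.10 in Trem2, 11.92 in Ccrl2, 9.48 in CD163 and 8.92 in CD74. Plk2, a stress-induced kinase, had 12.66 in Ccrl2, 12.39 in CD163, 12.18 in Trem2 and 8.09 in CD74, and Klf2, a factor linked to quiescence, 12.85, 12.08, 12.05 and 10.11. For Plk2, as for Cdkn1a and Pcna, CD74 was the library that stood apart under both scalings, with 8.99 for Plk2 after quantile normalization. That normalization put CD163 highest for both Plk2 (12.66) and Klf2 (12.36) and lowest for Ccng1 (9.82). It put Trem2 lowest for Klf2 (11.24), just under CD74 (11.31). Of 7 macrophage markers, 5 lay above background in CD74 and 7 in each other library, and their part in these values was not tested. The inhibitors Cdkn1c, Cdkn2a and Cdkn2b were below the ceiling in all 4 libraries.

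**Figure D5:**
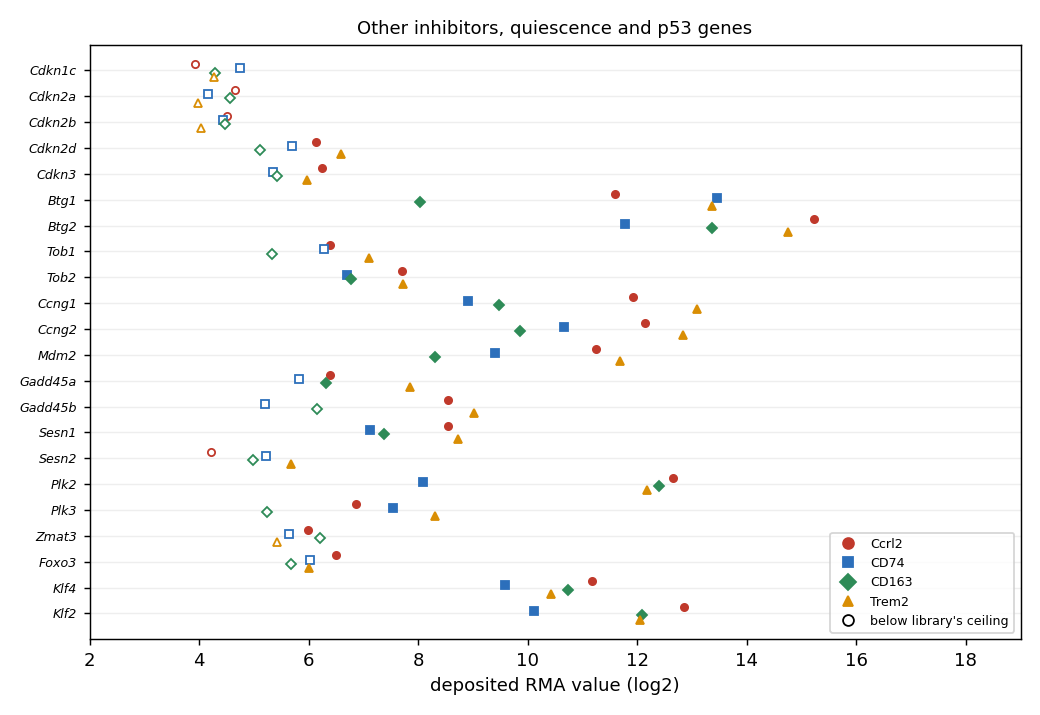
Deposited log2 values (x axis) of 22 other inhibitor, quiescence and p53 genes in the 4 libraries (colour and shape), filled where above the library's background ceiling. CD163 is far below the other libraries for Btg1 (8.03), and CD74 for Plk2 (8.09).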

How the data were processed

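Total RNA of each sorted population was amplified with a whole-transcript kit for small inputs and hybridised to Clariom S arrays, per the labels' protocols. The deposited values are log2 intensities, made by the authors with the RMA algorithm (robust multichip average), per the labels' protocols; Affymetrix Expression Console is named in the submitters' processing notes. The RMA settings and the annotation build were not given in the sources used here. Values ran from 2.97 to 19.93, a range that fits log2.

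The platform annotation gave 1 symbol to 19572 of 28846 probe sets and several to 0. The probe set with the highest mean over the 4 libraries stood for a gene, giving 19505 genes. Columns did not share a distribution: their 95th percentiles were 10.21 in Trem2, 10.09 in Ccrl2, 9.06 in CD163 and 8.45 in CD74. A call needed the higher value above its ceiling and a difference of 1 log2 unit, a value below its ceiling being set to that ceiling; a fold against such a value is a lower bound, written "at least". Calls used python 3.11.15 and pandas 2.3.3 and were tested on simulated data. There the changes were placed only in genes well above the ceilings, so recovery of changes near a ceiling was not tested. The members and lists were chosen with earlier results of these data known. Every member was named; in each pathway list, up to 3 genes by range and 3 by mean could be named, and others named were chosen after their values were seen. Alternatives were other scalings, ceilings, thresholds and references, probe set means, and leaving out each library.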

Additional observations from a re-analysis of the deposited data

How the results depend on the processing

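The counts and role medians were recomputed with other settings, 288 values in all, and 237 stayed within 1.5 times of a count or within 0.58 log2 units of a median. The cause of the others was not tested, and the member counts below are given without shares of all genes. With a ceiling at the 99th percentile of background genes, 5 members were above it in CD74, CD74 was lower than each other library for 2 and lower than CD163 for 2, Ccrl2 higher than each for 1, CD163 lower than each for 0, and CD74 higher than CD163 for 1 and than Trem2 for 0. After quantile normalization Ccrl2 was higher than CD74 for 6, than CD163 for 4 and than each other library for 1, and lower than CD74 for 2. CD74 was then higher than each other library for 1 and than Trem2 for 2, and CD163 lower than Trem2 for 4.

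At 1.5-fold, Ccrl2 was higher than each other library for 5 and than Trem2 for 6, and lower than CD74 for 1 and than Trem2 for 1. CD163 was lower than each for 3 and than Trem2 for 13, Trem2 higher than each for 1, and CD74 higher than Trem2 for 2. At 4-fold, Ccrl2 was higher than each for 0, than Trem2 for 0, than CD163 for 3 and than CD74 for 6. CD74 was lower than each for 2 and than CD163 for 2, and higher than CD163 for 0 and than Trem2 for 0, while CD163 was lower than each for 0 and than Trem2 for 4.

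Against the mean of the other 3 libraries, Ccrl2 was higher for 9, Trem2 higher for 8 and CD163 lower for 6. Leaving out Trem2, Ccrl2 was higher for 10 and CD163 lower for 2; leaving out CD74, CD163 was lower for 6; leaving out CD163, CD74 was lower for 10; leaving out Ccrl2, Trem2 was higher for 7. With no ceiling set, CD163 was lower than each for 2. For role medians, quantile normalization gave 0.68 for inhibitors in Ccrl2 and 0.90 in Trem2, and -0.61 in CD74 and 0.95 in Trem2 for the E2F and RB role. With no filter that role, then with E2f1, had -0.77 in CD74 and 1.11 in Trem2, and chromosomes and mitosis had -0.76 in CD74. The mean in place of the median gave -1.23 for licensing in CD74, and -2.42 in CD74 and 1.26 in Trem2 for inhibitors.

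No paired analysis was possible because each population is 1 library with no replicate number. Signal over background limits CD74 and CD163, whose higher ceilings leave small differences unresolved: under the 2-fold rule, 3.60% of background genes were called higher in CD74 than in Ccrl2 and 4.53% higher in CD74 than in Trem2.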
